A study of Homo sapiens with 4 samples.

Results

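The neuronal pentraxins NPTX1, NPTX2 and NPTXR and the long pentraxin PTX3 were chosen as a family because of NPTX1. When A549 cells with NUPR1 knockdown were set against control cells, NPTX1 had the lowest ratio of 10689 genes. Those were the genes with a mean of at least 5 CPM (reads scaled to library size). Of the 4 pentraxin genes, 3 had read counts among the 19399 rows used and 2 passed the filter on low counts. PTX3 was not analysed here. A549 is an established line of human lung adenocarcinoma cells, and NUPR1 (also called p8) is a small stress-induced chromatin protein. The tested cells carried the p8 knockdown and the others were labelled control, with no further treatment, time or knockdown reagent given in the labels. Each group had 2 libraries of polyadenylated RNA, 1 single-end and 1 paired-end, but the deposited tables hold 1 column per group. No value had a replicate, so nothing could be tested, and the labels do not say whether the libraries of a group came from separate cultures. Each interval below is a 95% interval for counting error alone. Because the comparison of these columns chose NPTX1, every value here is a description.

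Pentraxins are secreted proteins that share a carboxy-terminal pentraxin domain and assemble into ring-shaped or larger oligomers. Neuronal pentraxins are best known from excitatory synapses, where NPTX1 and NPTX2 are secreted, join with the membrane-anchored NPTXR and gather AMPA-type glutamate receptors at the cell surface. PTX3 is made by many cell types in response to inflammatory cytokines and binds complement components and the hyaluronan matrix.

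NPTX1, NPTX2 and NPTXR are paralogs on chromosomes 17, 7 and 22, and each has 5 exons in its longest coding transcript in GENCODE release 29. The untranslated part makes up 74.6% of the NPTX1 transcript, 52.0% of that of NPTX2 and 74.0% of that of NPTXR. No exon of these transcripts overlapped an exon of another annotated gene on either strand. The stretch of 60 coding bases in which the 3 transcripts are most alike without gaps is shown to let a reader see how far reads of these paralogs can be told apart. It starts at coding base 1064 in NPTX1, 1055 in NPTX2 and 1265 in NPTXR, counted from the first base of the annotated coding sequence, and capitals mark the bases that are the same in all 3.
NPTX1: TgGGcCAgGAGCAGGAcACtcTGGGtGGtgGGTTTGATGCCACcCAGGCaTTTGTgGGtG
NPTX2: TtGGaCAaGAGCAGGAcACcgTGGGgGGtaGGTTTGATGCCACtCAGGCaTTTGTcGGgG
NPTXR: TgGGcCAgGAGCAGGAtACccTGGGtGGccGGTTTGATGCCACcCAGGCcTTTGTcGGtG
In this stretch 47 of the 60 bases were shared by all 3 genes, and NPTX2 differed from NPTX1 at 10 bases and NPTXR at 6. Over the whole transcripts, the longest run of identical bases was 32 between NPTX1 and NPTX2, 22 between NPTX1 and NPTXR, and 19 between NPTX2 and NPTXR. How the authors counted a read that matches more than 1 gene is not given in the sources used here.

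NPTX1, the secreted neuronal pentraxin, was the member with the large difference. It had 64 reads (49.3 to 81.7) in the knockdown column, against 951 reads (892 to 1013) in the control column. Scaled to column totals adjusted by TMM normalisation factors, the knockdown reads were 3.81 CPM (reads scaled to library size, 2.93 to 4.87). The control reads were 47.3 CPM (44.4 to 50.4). The knockdown value lay far below the control value and their counting intervals did not meet. The log2 ratio of knockdown over control was -3.63 (-4.02 to -3.27), a 12.4-fold lower level. Computed from RPKM plus a pseudocount of 1, it was -2.50. In bulk RNA, fewer cells with NPTX1 transcripts and fewer transcripts per cell cannot be told apart. Of 10689 genes with a mean of at least 5 CPM, 0 had a lower ratio. At least 2-fold lower were 121 of them, or 1.13%, and 106, or 0.992%, were at least 2-fold higher. Because the gene was picked from this contrast, its place in that order restates the choice. Its mean of 25.6 CPM passed the 5 CPM minimum through the control column, since the knockdown value alone was below it.

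The genes next to NPTX1 in the order of ratios are given as a description, since that order chose NPTX1. GLIPR1, a secreted protein of the CAP domain family, had 8.52 CPM in knockdown cells and 63.1 CPM in control cells, a log2 ratio of -2.89 (-3.15 to -2.64). CCBE1, a secreted protein needed to form lymphatic vessels, had 1.67 CPM in knockdown cells and 10.6 CPM in control cells, a log2 ratio of -2.67 (-3.29 to -2.10). The interval of NPTX1 did not overlap that of GLIPR1 and overlapped the lower end of that of CCBE1. With RPKM plus 1, GLIPR1 had -2.41, close to the -2.50 of NPTX1, while CCBE1 had -1.06. The mean of 6.13 CPM of CCBE1 passed the 5 CPM minimum through the control column.

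NPTXR, the membrane-anchored partner, differed much less. It had 117 reads (96.8 to 140) in knockdown cells, against 176 reads (151 to 204) in control cells. On the CPM scale these were 6.97 (5.76 to 8.35) in knockdown cells and 8.76 (7.51 to 10.2) in control cells, with overlapping intervals. The log2 ratio was -0.33 (-0.68 to 0.02), an interval that includes equal levels, and 12.9% of the 10689 genes had a lower ratio. NPTXR was not 1.5-fold lower, a size that 475 genes, or 4.44%, reached, while 398 genes, or 3.72%, were at least 1.5-fold higher. At this depth a difference of NPTXR beyond counting error was not detectable, and its interval reaches down to -0.68.

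NPTX2, a secreted pentraxin known in neurons as an activity-regulated gene, was near the limit of detection. It had 0 reads in the knockdown column and 2 reads in the control column. The floor used for a count of 0 is 3 reads, or 0.179 CPM in knockdown cells, and its exact 95% interval reaches 3.69 reads. In control cells the 2 reads were 0.0995 CPM (0.0121 to 0.359). Both columns were at or below 3 reads, so no ratio is given, and any difference was not detectable at this depth.

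**Figure D1:**
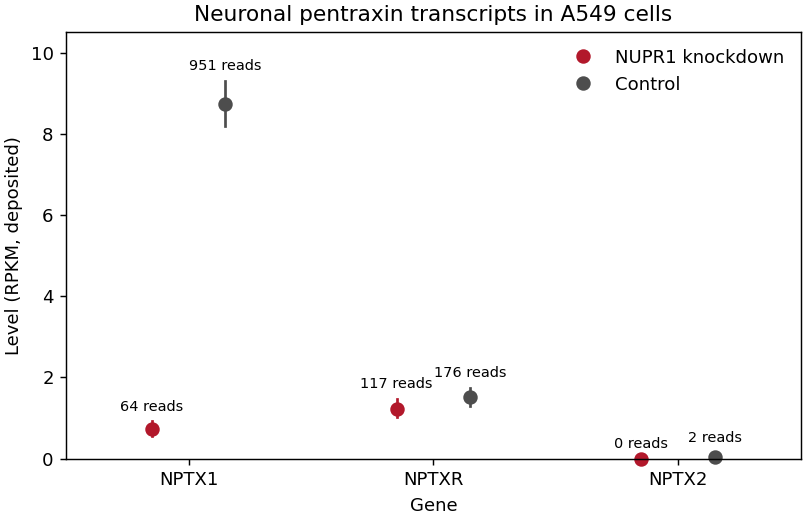
Levels of NPTX1, NPTXR and NPTX2 (x axis) in deposited RPKM (y axis, linear from 0) in the NUPR1 knockdown column (red, left) and the control column (grey, right), with the reads written above each point and lines for 95% Poisson intervals of the count; a count of 0 has no line. NPTX1 had 0.72 RPKM in knockdown cells against 8.73 RPKM in control cells, while NPTXR had 1.23 RPKM against 1.51 RPKM.

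Per length, the order of the members differed between the columns. In RPKM, reads per kilobase of gene length scaled to library size, NPTX1 stood at 0.72 (0.554 to 0.919) in knockdown cells and at 8.73 (8.18 to 9.30) in control cells. NPTXR stood at 1.23 (1.02 to 1.47) in knockdown cells and at 1.51 (1.30 to 1.75) in control cells. NPTX2 was listed at 0 in knockdown cells and at 0.04 in control cells. NPTXR was therefore the higher of the pair in knockdown cells and NPTX1 in control cells, and in each column the intervals of the pair did not overlap.

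The ratio of NPTX1 to NPTXR within a column does not depend on how the libraries are scaled. Per base of gene length it was 0.585 (0.424 to 0.800) in knockdown cells, against 5.78 (4.92 to 6.83) in control cells. Of all reads on the 3 genes, NPTX1 had 35.4% of 181 in knockdown cells and 84.2% of 1129 in control cells. Among the 14175 genes that passed the filter, 15.1% had a lower level per length than NPTX1 in knockdown cells and 62.3% in control cells. The same share for NPTXR was 21.8% in knockdown cells and 24.8% in control cells, so NPTXR kept a low place in both.

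**Figure D2:**
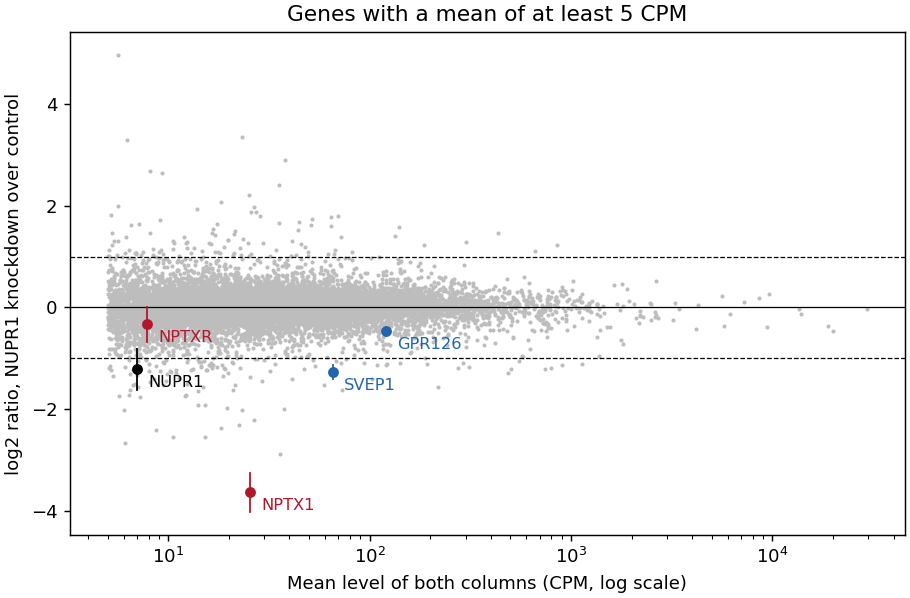
Mean level of both columns in CPM (x axis, log scale) and log2 ratio of knockdown over control (y axis) for the 10689 genes with a mean of at least 5 CPM (grey); NPTX1 and NPTXR are in red, other genes with a pentraxin domain in blue and NUPR1 in black, with 95% counting intervals and dashed lines at 2-fold. NPTX1 at -3.63 is the lowest point, NPTXR at -0.33 lies within the main cloud and SVEP1 at -1.27 below the 2-fold line.

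NUPR1, the targeted gene, gives the scale of the knockdown at the RNA level. It had 4.23 CPM (3.30 to 5.33) in knockdown cells, against 9.80 CPM (8.48 to 11.3) in control cells, a log2 ratio of -1.21 (-1.63 to -0.81). That is a 2.32-fold lower level.

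Other genes that code for a pentraxin domain were looked up by name, and of 8 listed 4 had reads counted here. SVEP1, a very large secreted adhesion protein that holds a pentraxin domain among sushi and EGF repeats, was 2.41-fold lower. It had 648 reads in knockdown cells, against 1870 reads in control cells, or 38.6 CPM (35.7 to 41.7) in knockdown cells and 93.0 CPM (88.9 to 97.4) in control cells. Its log2 ratio was -1.27 (-1.40 to -1.14), and with RPKM plus a pseudocount of 1 it was -0.99, just short of 2-fold. GPR126, an adhesion G protein-coupled receptor known for its role in Schwann cell myelination, had 102 CPM (96.9 to 107) in knockdown cells and 141 CPM (136 to 146) in control cells. Its log2 ratio of -0.47 (-0.56 to -0.38) was below 0 but did not reach 1.5-fold. The related receptors GPR133 and GPR112 were at the edge of detection, GPR133 with 2 reads in knockdown cells and 4 in control cells and GPR112 with 0 reads in knockdown cells and 1 in control cells. The median log2 ratio of the 2 genes of this group with a mean of 5 CPM was -0.87, beside 0.01 over all 10689 genes.

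Genes around the function of the pentraxins were taken from 7 lists, among them the pentraxin domain genes, with 104 genes described here, of which 89 had a row in the count table and 31 a mean of at least 5 CPM. Of the 31, 20 were lower and 11 higher in knockdown cells, with a median log2 ratio of -0.17, and 48.8% of all 10689 genes were lower. At least 1.5-fold lower were 4 genes, 12.9% beside 4.44% of all genes, and each of them was also 2-fold lower. The 4 lower genes were SVEP1, CACNG8, NLGN2 and FN1. The lists were chosen with earlier results of these data known, so these shares only describe the listed genes.

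AMPA receptors, which neuronal pentraxins gather, were hardly detected in these cells. GRIA1 had 2 reads in knockdown cells and 2 reads in control cells, GRIA2 had 2 in knockdown cells and 0 in control cells, GRIA3 had 1 in knockdown cells and 3 in control cells, and GRIA4 had 1 in each. All 4 subunit genes were therefore at or below 3 reads. Of 11 auxiliary subunit and cornichon genes with a row, 4 had a mean of 5 CPM. CACNG8, a transmembrane AMPA receptor regulatory protein, had 478 reads and 28.5 CPM (26.0 to 31.1) in knockdown cells, against 1317 reads and 65.5 CPM (62.0 to 69.2) in control cells. Its log2 ratio was -1.20 (-1.36 to -1.05), and with RPKM plus 1 it was -0.97. Its relative CACNG4 had -0.17 (-0.38 to 0.04), the cornichon genes CNIH4 and CNIH had 0.39 (0.23 to 0.55) and 0.09 (-0.04 to 0.22), and the median of the 4 was -0.04. Below 5 CPM, CACNG7 had 13 reads in knockdown cells and 49 in control cells, a log2 ratio of -1.66 (-2.66 to -0.75). CNIH2 had 5 reads in knockdown cells and 20 in control cells, a log2 ratio of -1.74 (-3.51 to -0.28). CNIH2 passed the filter through the control column alone, which favours a lower ratio, and both genes were named after their values were seen.

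Transcripts for proteins listed as binding, cleaving or releasing neuronal pentraxins had small ratios in the 3 genes with a mean of 5 CPM. ADAM17, the metalloprotease that cleaves NPTXR from the membrane in neurons, had 123 CPM (118 to 128) in knockdown cells and 102 CPM (97.5 to 106) in control cells, a log2 ratio of 0.27 (0.18 to 0.36). RCN2, a calcium-binding protein of the secretory pathway that binds neuronal pentraxins, had 93.0 CPM (88.5 to 97.7) in knockdown cells and 113 CPM (108 to 118) in control cells, a log2 ratio of -0.28 (-0.37 to -0.19). GPC6, a glypican that astrocytes release to recruit AMPA receptors, had 40.1 CPM in knockdown cells and 45.8 CPM in control cells, with a log2 ratio of -0.19 (-0.34 to -0.04). Of the 3 genes of this group with a mean of 5 CPM, 0 were 1.5-fold higher or lower. That is near the background of 4.44% lower and 3.72% higher over all 10689 genes. The receptor phosphatase PTPRD had 37 reads in knockdown cells and 34 in control cells, and the glypican GPC4 had 2 in knockdown cells and 1 in control cells.

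Other organisers of synapses were mostly too low to describe, with 23 genes having a row and 2 a mean of 5 CPM. NLGN2, the neuroligin of inhibitory synapses, had 192 reads and 11.4 CPM (9.87 to 13.2) in knockdown cells, against 565 reads and 28.1 CPM (25.8 to 30.5) in control cells. Its log2 ratio was -1.30 (-1.54 to -1.06). THBS1, a thrombospondin of the extracellular matrix, had 73.5 CPM in knockdown cells and 94.1 CPM in control cells, a log2 ratio of -0.36 (-0.46 to -0.25).

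The list for PTX3 ligands also holds enzymes and receptors of the hyaluronan matrix and proteases of complement. Of its 22 genes with a row, 12 passed the filter and 9 had a mean of 5 CPM. Of the 9, 4 were lower and 5 higher, with a median log2 ratio of 0.02. FN1, which encodes the matrix protein fibronectin, had 186 CPM (180 to 193) in knockdown cells, against 398 CPM (390 to 407) in control cells, a log2 ratio of -1.10 (-1.16 to -1.04). The hyaluronan-binding proteoglycan gene VCAN had -0.49 (-0.57 to -0.42) and the hyaluronan synthase gene HAS3 -0.52 (-0.80 to -0.24), neither of them 1.5-fold. HMMR, a hyaluronan-binding receptor, had 185 CPM (178 to 191) in knockdown cells and 144 CPM (139 to 149) in control cells, a log2 ratio of 0.36 (0.29 to 0.43). The 3 genes that passed the filter below 5 CPM had intervals that did not include 0, but were named after their values were seen. The hyaluronan synthase gene HAS2 had 5 reads in knockdown cells and 23 in control cells (-1.94, -3.69 to -0.52). HAS2 passed the filter through the control column alone, which favours a lower ratio. ITIH2, an inter-alpha-trypsin inhibitor heavy chain, had 11 reads in knockdown cells and 33 in control cells (-1.33, -2.46 to -0.31). C4BPA, a chain of C4b-binding protein, had 47 reads in knockdown cells and 24 in control cells, a log2 ratio of 1.23 with a lower bound of 0.49.

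Of 20 cytokine, chemokine, receptor and signalling genes listed around the induction of PTX3, 14 passed the filter and 11 had a mean of 5 CPM. Not all of them induce PTX3, as IL1RN is a receptor antagonist. Of the 11, 8 were lower and 3 higher, with a median log2 ratio of -0.14, and 0 of them reached 1.5-fold. The share of lower genes was 48.8% among all 10689 genes. A drop of 1.5-fold or more was seen in 4.44% of those genes and a rise of that size in 3.72%. The 0 of 11 is near that background. OSMR, the oncostatin M receptor, had the largest difference of the 11, with 98.8 CPM (94.1 to 104) in knockdown cells and 140 CPM (135 to 145) in control cells, a log2 ratio of -0.50 (-0.59 to -0.41). NFKB1, a subunit of NF-kB, had -0.36 (-0.56 to -0.17), the shared cytokine receptor IL6ST -0.22 (-0.31 to -0.13) and the TNF receptor TNFRSF1A -0.19 (-0.26 to -0.12). Below 5 CPM, TLR4, the receptor for bacterial lipopolysaccharide, had 3 reads in knockdown cells and 30 in control cells. Its log2 ratio was -3.06 (-5.42 to -1.38), but it passed the filter through the control column alone, which favours a lower ratio. The chemokine genes IL8 and CCL2 had 0.31 (-0.16 to 0.79) and 0.42 (-0.04 to 0.88).

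**Figure D3:**
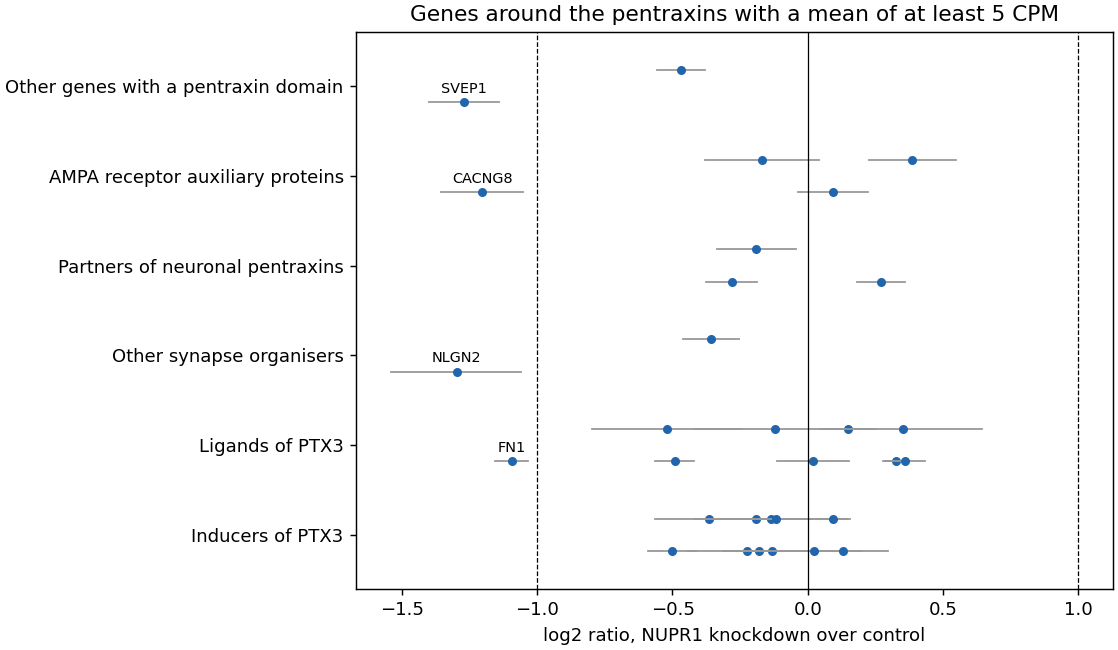
log2 ratio of knockdown over control (x axis) for the genes of 6 lists (rows) that had a mean of at least 5 CPM, with 95% counting intervals as grey lines and dashed lines at 2-fold; genes past 1.5-fold are named, and no AMPA receptor subunit reached the minimum. SVEP1, CACNG8, NLGN2 and FN1 lie left of the lower line. The row for PTX3 ligands also holds other genes of the hyaluronan matrix and complement, and the row for PTX3 inducers also holds receptors and signalling genes.

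The genes beside NPTX1 on chromosome 17 had small log2 ratios. All 6 neighbours with reads, 3 on each side by their order in RefSeq, were lower in knockdown cells, with log2 ratios between -0.30 and -0.08, and 0 of them reached 1.5-fold. Over all 10689 genes 48.8% were lower and 4.44% at least 1.5-fold lower, so 0 of 6 is near that background. ENDOV, a ribonuclease that cuts after inosine, had 275 reads in knockdown cells and 406 reads in control cells, a log2 ratio of -0.30 (-0.53 to -0.08). RPTOR, the mTORC1 scaffold protein raptor on the other side, had 1323 reads in knockdown cells and 1709 reads in control cells, a log2 ratio of -0.11 (-0.21 to -0.01). RNF213, CHMP6, SLC26A11 and BAIAP2-AS1 had -0.22, -0.28, -0.16 and -0.08.

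On chromosome 22 the gene after NPTXR, the Polycomb protein gene CBX6, had 22.0 CPM (19.8 to 24.4) in knockdown cells and 34.5 CPM (32.0 to 37.2) in control cells. Its log2 ratio of -0.65 (-0.83 to -0.46) was lower than that of NPTXR itself. On the other side DNAL4, SUN2 and GTPBP1 had log2 ratios of -0.41, -0.26 and -0.00, and beyond CBX6 APOBEC3B had 0.17, while APOBEC3A had 1 read in knockdown cells and 4 in control cells. NPTX2 had next to no reads although its neighbours BAIAP2L1 and TRRAP had 157 CPM and 63.1 CPM in knockdown cells, against 181 CPM and 82.5 CPM in control cells. BRI3 was the neighbour of NPTX2 past 1.5-fold, at a log2 ratio of 0.66 (0.46 to 0.87), while TECPR1 and SMURF1 had -0.31 and -0.12. TMEM130, the nearest gene after NPTX2 with reads, had 4 reads in knockdown cells and 7 in control cells.

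**Figure D4:**
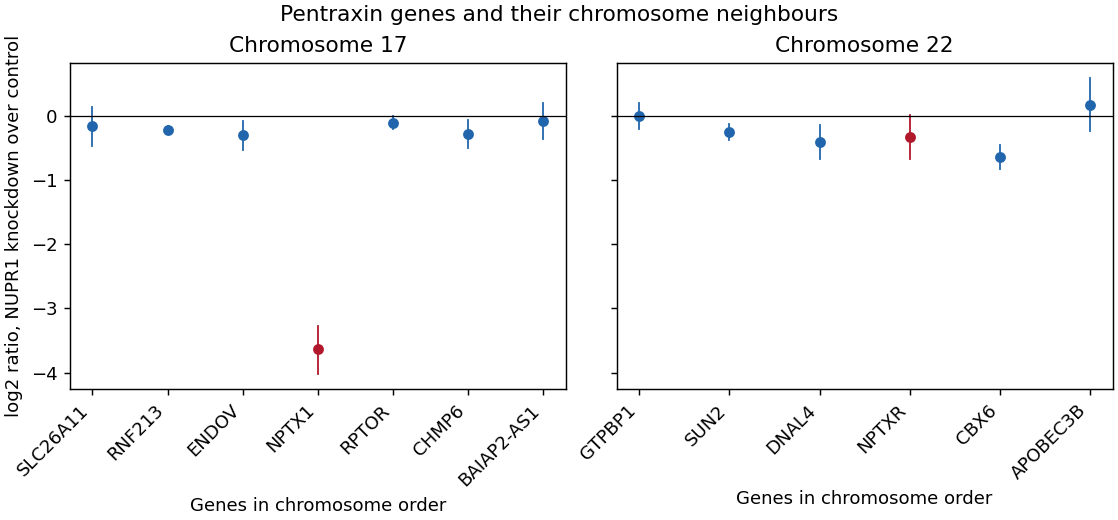
log2 ratio of knockdown over control (y axis) for NPTX1 on chromosome 17 and NPTXR on chromosome 22 (red) and for their neighbours in chromosome order (blue, x axis, up to 3 per side with a mean of at least 5 CPM), with 95% counting intervals. NPTX1 lies at -3.63 and its neighbours between -0.30 and -0.08, whereas NPTXR at -0.33 lies among its neighbours.

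Genes most like NPTX1 and NPTXR were found by the distance of their log2 CPM in the 2 columns, which describes level and ratio together and rests on 2 values per gene. No gene lay close to NPTX1: the nearest were INS-IGF2, ANGPTL4 and P4HA3 at distances of 0.89, 0.90 and 1.03 log2 units. The nearest, INS-IGF2, a readthrough gene whose reads cannot be told apart from those of INS and IGF2, had 4.47 CPM in knockdown cells and 26.1 CPM in control cells. ANGPTL4, a secreted inhibitor of lipoprotein lipase, had 5.95 CPM in knockdown cells and 30.7 CPM in control cells, and P4HA3, a collagen prolyl hydroxylase subunit, had 7.44 CPM in knockdown cells and 37.2 CPM in control cells. NPTXR, in a crowded range of levels, had MRPL54, CAB39L and ZFP112 within 0.03 log2 units.

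Markers of other cell types were read beside these values. Of 13 neuron markers 10 had a row and 7 a mean of 5 CPM, and their summed level was 315 CPM in knockdown cells and 241 CPM in control cells, the opposite direction to NPTX1. RBFOX3, the neuronal splicing factor NeuN, had 66.4 CPM (62.6 to 70.4) in knockdown cells and 32.8 CPM (30.3 to 35.4) in control cells, a log2 ratio of 1.02 (0.88 to 1.16), which was 0.95 with RPKM plus 1. The synaptic vesicle gene SYT1 had 0.50 (0.38 to 0.62), the tubulin gene TUBB3 0.30 (0.21 to 0.40) and the neurofilament gene INA -0.37 (-0.55 to -0.20). SYP, another synaptic vesicle gene, was lower, like NPTX1, with 7.74 CPM (6.47 to 9.19) in knockdown cells and 11.8 CPM (10.3 to 13.4) in control cells, a log2 ratio of -0.61 (-0.93 to -0.29). SYP was the only neuron marker of the 7 at least 1.5-fold lower, beside 4.44% of all 10689 genes. The 2 at least 1.5-fold higher, beside 3.72% of all genes, were RBFOX3 and NEFL. NEFL had a log2 ratio of 0.71 (0.34 to 1.09), and MAP2 had 0.56 (0.36 to 0.76), short of 1.5-fold. With 7 genes these counts only describe the markers, and 0 of the 10 markers were without reads. Of 10 neuroendocrine markers 7 had a row, summing to 334 CPM in knockdown cells and 274 CPM in control cells, mostly from UCHL1 with 301 CPM in knockdown cells and 240 CPM in control cells. CHGB and NCAM1 had log2 ratios of 0.30 (-0.00 to 0.59) and -0.17 (-0.38 to 0.04), and SCG2 had 31 reads in knockdown cells and 38 in control cells. The part of these genes in the result for NPTX1 was not tested.

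Markers of fibroblasts, endothelium and leukocytes summed to 52.1 CPM over 17 genes in knockdown cells and 45.8 CPM in control cells, of which CD68, also a lysosomal gene, made up 34.3 CPM in knockdown cells and 18.9 CPM in control cells. COL1A1 had 5.54 CPM in knockdown cells and 18.6 CPM in control cells. COL1A2 went the other way, with 19 reads in knockdown cells and 8 in control cells, a log2 ratio of 1.51 (0.25 to 2.91). COL1A2 passed the filter through the knockdown column alone, which favours a higher ratio. PDGFRA had 3.93 CPM in knockdown cells and 2.29 CPM in control cells. COL3A1 had 27 reads in knockdown cells and 26 in control cells. Of the endothelial markers, PECAM1 had 0 reads in knockdown cells and 2 in control cells, and VWF had 10 reads in knockdown cells and 6 in control cells. CDH5 had 18 reads in knockdown cells and 3 in control cells, a log2 ratio of 2.84 (1.07 to 5.25). CDH5 and VWF also passed the filter through the knockdown column alone, which favours a higher ratio. The epithelial keratins KRT8 and KRT18 were abundant, with 10479 CPM and 9129 CPM in knockdown cells, against 8775 CPM and 8071 CPM in control cells. KRT7 had a log2 ratio of -0.31 (-0.33 to -0.29) and the E-cadherin gene CDH1 0.73 (0.60 to 0.86). The epithelial markers EPCAM and KRT19 were low, with 68 and 22 reads in knockdown cells, against 84 and 46 reads in control cells. Their log2 ratios were -0.05 (-0.53 to 0.43) and -0.81 (-1.61 to -0.04). Lung epithelial markers were low, 10 genes summing to 40.6 CPM in knockdown cells and 36.9 CPM in control cells, most of it ABCA3 with 28.3 CPM in knockdown cells and 25.1 CPM in control cells. SFTPB, SFTPA2 and AGER had 53, 37 and 35 reads in knockdown cells, against 33, 42 and 60 reads in control cells.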

How the data were processed

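The authors deposited raw read counts per gene and RPKM values, with 1 column per group. TopHat2 2.0.10, edgeR 3.2.2 and hg19 are named, without their roles, per the submitters' processing notes. Not given in the sources used here are the counting tool, its annotation, its use of strand, and how both layouts of a group were joined. Each deposited RPKM above 1 in both columns equalled count over gene length times 1 constant per column, within 1%. The knockdown column was matched by the start of its name, which differs from its library titles by 1 letter. There were 0 further columns of values.

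Totals were 16649863 reads for knockdown and 20299441 reads for control. Of 19402 rows, 3 with a broken name or length were left out, with 0.0872% of knockdown reads and 0.0509% of control reads. Another 26 symbols turned into dates were restored. TMM factors (1.01 and 0.991) and the filterByExpr filter (minimum count 10, minimum total 15) came from edgeR 4.0.16 in R 4.3.3. Intervals, made with Python 3.11.15 and scipy 1.17.1, were exact Poisson for counts and exact conditional (Clopper-Pearson) for ratios. Reads without molecular identifiers are not independent molecules, so intervals and the floor of 3 reads cover counting error only. The design foresaw a quasi-likelihood test if each library had a column. Columns of single libraries were not analysed here, which leaves 0 residual degrees of freedom, and no test was made. The interval procedure was tested on simulated counts.

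The members and the 12 gene lists were chosen with earlier results of these data known. From the lists, 1 gene is not reported here and is left out of the list counts. Named were the members, NUPR1, all genes of 3 short lists (pentraxin domain, AMPA receptor subunits, partners), up to 4 genes of each other list (largest ratio, or most reads for markers), 3 neighbours per side, the 3 genes most alike and the 3 next lowest ratios. The markers SYP, NEFL, MAP2, PECAM1, VWF, CDH5, COL1A2, EPCAM and KRT19 were named after their values were seen. So were the list genes described below 5 CPM (CACNG7, CNIH2, HAS2, ITIH2, C4BPA, TLR4, IL8, CCL2). Genes without a symbol and small RNAs were skipped. Coding stretches came from GENCODE release 29 transcripts, whose build (GRCh38) differs from hg19, and positions are given within the coding sequence. Alternatives were scaling by totals or median-of-ratios size factors, thinning the control column, RPKM with a pseudocount of 0.1 or 1, removal of a length trend in 20 bins, no filter, and a minimum mean of 1 CPM.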

Additional observations from a re-analysis of the deposited data

How the results depend on the processing

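No paired analysis was possible because each group came as 1 deposited column, and for the same reason leaving out each library was not run. The log2 ratio of NPTX1 stayed between -3.63 and -2.50 and that of NPTXR between -0.40 and -0.17 in the 6 alternatives that gave them values. The value of -2.50 for NPTX1 came with RPKM plus a pseudocount of 1, where the added 1 is larger than its knockdown RPKM. In that setting 57 genes were 2-fold or more higher and 55 lower by that much. With a minimum mean of 1 CPM these counts were 259 and 305, since more genes enter, and of the lists around the pentraxins 1 gene was higher and 8 lower by 1.5-fold or more. With RPKM plus 1, NPTX1 left its counting interval and NPTXR did not. Of the 68 other genes with a ratio that the naming rule gave, 14 also left theirs, and 0 of those 2-fold higher or lower changed direction in any alternative. In the same setting SVEP1 (-0.99), CACNG8 (-0.97) and RBFOX3 (0.95) were short of 2-fold. NPTX2 had no ratio under any setting, and PTX3 was not analysed here. Depth limits the smaller values: 1 read is worth 0.0595 CPM for knockdown and 0.0498 CPM for control.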
